A study of Mus musculus with 18 samples.

Results

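The step from a resting naive B cell to an antibody-secreting plasma cell was described in 6 of the 18 RNA-seq libraries of the series, all from Dnmt3-sufficient mice. Chosen by their labels, 3 libraries were of naive B cells (nB) and 3 of bone marrow plasma cells (BMPC), each from 1 mouse. The nB were lymph node cells of unimmunized mice, sorted as B220+ Fas- GL7- (2 females and 1 male). The BMPC were CD138+ cells of the bone marrow, taken 30 days after mice were immunized (1 female and 2 males). The antigen was phycoerythrin (PE), an algal fluorescent protein, given in complete Freund's adjuvant. All 6 mice had the alleles Dnmt3afl/fl Dnmt3bfl/fl on a B6;129S4 background, so both de novo DNA methyltransferase genes carried loxP sites, and no Cre recombinase was present to remove them. Mice were 8 to 12 weeks old at the start, and 5000 cells were sorted per library. The BMPC sort used CD138 and not PE binding, so it held plasma cells of any specificity. Cell type, tissue and immunization changed together and cannot be told apart. The study comprised 3 experiments, and which library came from which is not given in the sources used here.

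Plasma cells are the end stage of the B lineage. Blimp-1 (encoded by Prdm1), Irf4 and Xbp1 are the factors known to end the B cell program and to build the secretory apparatus, while Pax5, Ebf1, Bach2 and Ciita maintain the B cell. An antibody chain enters the endoplasmic reticulum (ER) through the Sec61 channel, is glycosylated, folded by chaperones, paired through disulfide bonds and carried to the Golgi in coated vesicles. The unfolded protein response, which runs through Xbp1, Atf6 and Perk, sets the capacity of the ER for this load. Plasma cells of the marrow are held to be non-dividing cells that depend on local survival signals.

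The BMPC libraries were shallower and more variable. Reads on genes numbered 6692516 to 8987922 in nB and 2196198 to 3803197 in BMPC. Genes with a read numbered 11151 to 11182 in nB and 8129 to 8869 in BMPC, and with every library thinned to 2196198 reads they numbered 10530 to 10715 and 7769 to 8719. The median SD between replicates over the genes tested was 0.42 on the log2 scale in nB and 0.87 in BMPC. Of 21761 genes in the table, 10202 had an FPKM (reads scaled to exon length and to the size of the library) above 1 in at least 2 of the 6 libraries and were tested with limma on log2(FPKM + 1). A log2 change is the difference of the group means on that scale, BMPC minus nB, with its standard error. It understates the change of low genes. Here "rose" and "fell" mean a Benjamini-Hochberg adjusted p of 0.05 or less and a log2 change of at least 1 in size.

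By this test 902 genes rose in BMPC (8.84% of those tested) and 2157 fell (21.1%), 3059 in all (30%), and in each of them the 3 libraries of one group lay beyond the 3 of the other. Groups did not overlap in 1418 genes that were higher in BMPC (13.9%) and in 3546 that were lower (34.8%). These shares of all genes tested are the background for the counts of each list below. All 3 BMPC libraries were at 0 reads for 724 genes (7.1%) and all 3 nB libraries for 196 (1.92%). The median log2 change over all genes tested was -0.89, and -0.36 over the 5780 genes with reads in all 6 libraries. With the genes at 3 reads or fewer throughout a group set at 3 reads in each of its libraries, the median was -0.81. The 10 most abundant genes took 14.6% to 20.2% of BMPC reads and 5.08% to 5.71% of nB reads, and Jchain alone took 5.38%, 4.23% and 3.40% of the BMPC reads. The table entry Rprl1 held more, with 216217, 328453 and 243885 reads in BMPC, beside 118233, 161065 and 123506 of Jchain. In nB, Rprl1 held 15278, 19480 and 20088 reads. The alternative scaling after removing Jchain left Rprl1 in place. These are bulk libraries, so for each fall fewer cells of a type and less RNA per cell cannot be told apart. Reads of immunoglobulin heavy and light chain genes were not analysed here. The paper reports that immunoglobulin transcripts were a far larger share of mRNA in BMPC than in nB. FPKM here is relative to reads on listed genes, so a rise or fall is no measure per cell or per total mRNA. A change of processing ended the call of Jchain (with voom on recovered reads).

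The 4 marker genes of plasma cells were all higher in each BMPC library than in any nB library, and 3 of them passed the test. Jchain, which links IgM and IgA into polymers, measured 0, 0 and 0.0529 FPKM in nB, against 25612, 20147 and 16189 FPKM in BMPC (log2 change 14.28 ± 0.23, adjusted p = 3.43e-07). It was the gene with the largest rise. Its nB value rested on a single read in replicate 3, against 118233, 161065 and 123506 reads in BMPC. Xbp1, the transcription factor that drives expansion of the ER (mm9 chr11:5420662-5425896, plus strand), stood at 42.9, 19.7 and 7.91 FPKM in nB and 716, 738 and 559 FPKM in BMPC (log2 change 5.05 ± 0.54, adjusted p = 0.001). On the log2 scale the nB libraries differed among themselves by more than the BMPC libraries did, and the lowest BMPC value was still far above the highest nB value. Sdc1, which encodes CD138 and so the antigen of the sort (mm9 chr12:8778129-8800521, plus strand), stood at 0, 1.11 and 0.91 FPKM in nB and 40.1, 65.0 and 35.9 FPKM in BMPC (log2 change 4.87 ± 0.59, adjusted p = 0.00164).

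Prdm1 (mm9 chr10:44156983-44248307, minus strand) did not pass. Its levels were 0, 0.746 and 0 FPKM in nB, against 0.838, 14.5 and 6.14 FPKM in BMPC (log2 change 2.29 ± 0.82, adjusted p = 0.0712), from 0, 31 and 0 reads and 10, 300 and 121 reads. The groups did not overlap, but BMPC replicate 1 lay close to the highest nB library and the spread within BMPC was wide. Irf4, which plasma cells need at high levels, was detected in nB at 30.3, 23.4 and 29.5 FPKM and in BMPC at 37.3, 55.2 and 44.1 FPKM (log2 change 0.69 ± 0.34, adjusted p = 0.163). All 3 BMPC values were above the nB values, by less than the threshold of the test.

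Of the 12 plasma cell factors, 4 rose and 1 fell, and the median log2 change was 0.26 beside -0.89 over all genes. Besides Xbp1, the genes that rose were Bhlha15 (Mist1), which shapes secretory cells, Creb3l2, a membrane-bound factor of the ER, and Ell2, an elongation factor that favors the secreted form of the heavy chain. Bhlha15 stood at 2.57, 0 and 0 FPKM in nB and 30.0, 28.3 and 11.6 FPKM in BMPC (log2 change 3.88 ± 0.76, adjusted p = 0.009). For Creb3l2 the values were 1.12, 0.113 and 1.92 FPKM and 7.19, 17.0 and 6.73 FPKM (log2 change 2.46 ± 0.66, adjusted p = 0.0287), and the log2 change of Ell2 was 1.83 ± 0.58. Zbtb38, a zinc finger gene, fell by 2.68 ± 0.56 on the log2 scale. Zbtb20, a factor of long-lived plasma cells, did not pass (log2 change -1.33). Without any 1 of the nB replicates, 2 factors rose in place of 4. In fits that omitted a library, the call was lost for Creb3l2 (without any single nB library) and Ell2 (without BMPC replicate 1 or 2 or any single nB library), at adjusted p = 0.0597 to 0.143. Processed otherwise, the test was not passed by Creb3l2 (with a pseudocount of 0.1 or sex in the model) and Ell2 (under at least 4 other ways of processing).

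**Figure D1:**
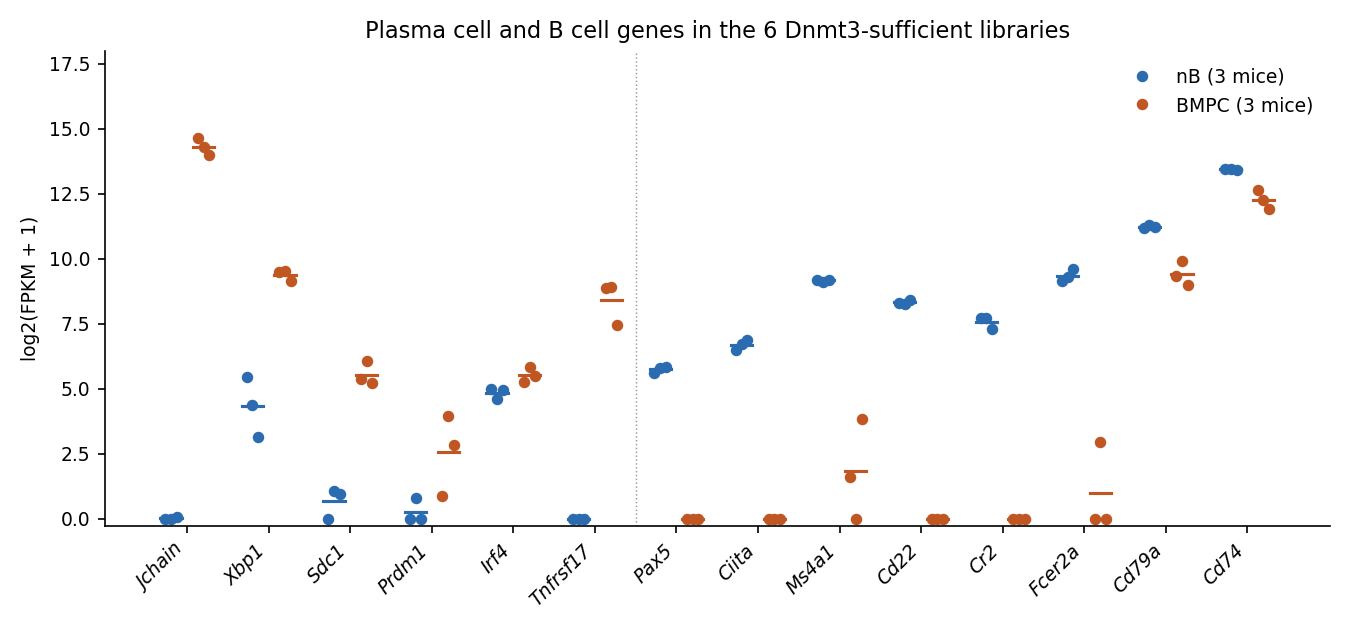
Level of 14 genes on the log2(FPKM + 1) scale, with 1 point per library, blue for the 3 nB and orange for the 3 BMPC libraries, and a line at each group mean. Left of the dotted line, 6 plasma cell genes are higher in each BMPC library than in any nB library, with Irf4 nearly level, and right of it 8 B cell genes are lower in each BMPC library.

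Among genes of the plasma cell surface, 11 of 19 tested rose and 4 fell (median log2 change 2.68), and of all genes 8.84% rose and 21.1% fell. Tnfrsf17, which encodes BCMA, the receptor through which APRIL keeps plasma cells alive, had 0 reads in all nB libraries and stood at 465, 482 and 173 FPKM in BMPC (log2 change 8.41 ± 0.53, adjusted p = 0.00015), at least 775-fold higher with each nB library set at 3 reads. BMPC replicate 3 was the lowest of its group and remained far above nB. The tetraspanin gene Cd9 stood at 0, 13.4 and 0 FPKM in nB and 36.3, 60.2 and 66.1 FPKM in BMPC (log2 change 4.46 ± 1.07, adjusted p = 0.0191), where 2 nB libraries had none. Cd28, the costimulatory receptor better known from T cells, rose with a log2 change of 4.36 ± 0.59, Cd93 with 3.66 ± 0.51, Ly6k with 4.25 ± 0.57 and Slamf7 (CS1) with 2.68 ± 0.32. Ly6c1 and Ly6c2, which also rose, are near-identical neighbors whose reads may be split between them. With a library left out, the test was no longer passed by Cd9 (without nB replicate 1 or 3), at adjusted p = 0.0763 to 0.0769. The call also did not hold for Cd9 (with library weights).

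The surface genes that fell included Cd38 and TACI. Cd38, an ecto-enzyme that in mice is high on naive B cells, stood at 190.2, 159 and 159 FPKM in nB and 7.30, 0 and 2.58 FPKM in BMPC (log2 change -5.78 ± 0.76, adjusted p = 0.00222). Tnfrsf13b (TACI), a second receptor for BAFF and APRIL, fell by 1.30 ± 0.38 on the log2 scale and Tnfrsf13c, the BAFF receptor, by 3.52 ± 0.29. Of the 3 receptors of these ligands, then, BCMA was higher in BMPC and both others lower. Fcrl5 fell by 3.87 ± 0.92, and Il6ra, the interleukin 6 receptor chain, had 0 reads in all BMPC libraries and 3.98, 2.31 and 0.899 FPKM in nB (log2 change -1.66 ± 0.45, adjusted p = 0.0296). Cd44, Cd27 and Cd81 did not pass (log2 changes 1.54, 1.27 and -0.27). The count of surface genes that fell was 2 without nB replicate 1 or 3 or BMPC replicate 1 or 3, and 1 without nB replicate 2. Calls that were lost on leaving out a library were those of Tnfrsf13b (without BMPC replicate 1 or 3 or any single nB library), Fcrl5 (without any single nB library) and Il6ra (without any single BMPC library or nB replicate 2), at adjusted p = 0.0617 to 0.134. Another setting also ended the call of Tnfrsf13b (under at least 4 other ways of processing) and Il6ra (with library weights or sex in the model).

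Most transcription factors of B cell identity fell. Of 22 tested, 15 fell and 1 rose, with a median log2 change of -3.08 (range -7.13 to 3.85), and -3.06 with undetected members set at 3 reads. Pax5, which specifies and maintains the B lineage (mm9 chr4:44544017-44724318, minus strand), had 386, 500 and 607 reads in nB, or 47.7, 54.1 and 55.9 FPKM, and 0 reads in all 3 BMPC libraries (log2 change -5.74 ± 0.51, adjusted p = 0.00052). This is at least 63.9-fold lower with each BMPC library set at 3 reads. Ciita, the coactivator that turns on MHC class II genes, measured 88.2, 103 and 115 FPKM in nB, with 0 reads in each BMPC library (log2 change -6.68 ± 0.48, adjusted p = 0.000255, at least 806-fold lower). The Ets family factor Spib likewise had 0 reads in BMPC, against 204, 145 and 90.3 FPKM in nB (log2 change -7.13 ± 0.52, adjusted p = 0.000259, at least 411-fold lower). For these 3 genes every nB library held reads and no BMPC library did.

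Other factors kept a trace in some BMPC libraries. Ebf1, which acts with Pax5, stood at 94.5, 119.8 and 137 FPKM in nB and 0, 0 and 0.578 FPKM in BMPC (log2 change -6.65 ± 0.50, adjusted p = 0.000278). Bach2, which represses Prdm1, stood at 26.5, 14.7 and 21.2 FPKM in nB and 1.52, 1.603 and 0 FPKM in BMPC (log2 change -3.50 ± 0.64, adjusted p = 0.00724). Id3, an inhibitor of E proteins, stood at 263, 244 and 331 FPKM and 14.8, 0 and 0 FPKM (log2 change -6.79 ± 1.05, adjusted p = 0.00387), whereas the related Id2 was the single member that rose (log2 change 3.85 ± 0.46). Bcl6, Ets1, Pou2f2 (Oct2), Irf8, Foxp1, Bcl11a, Mef2c, Ikzf1 and Relb also fell, by 1.51 to 4.98 on the log2 scale. The 6 factors that did not pass included the E protein genes Tcf3 and Tcf4, Foxo1 and Pou2af1 (OBF-1), with log2 changes of -0.95, -1.19, -2.25 and -0.65. Leaving out a library ended the calls of Ets1 and Bcl11a (without any single nB library) and Ikzf1 (without BMPC replicate 1 or 2 or any single nB library), at adjusted p = 0.0604 to 0.15. A change of processing ended the call of Ikzf1 (under at least 4 other ways of processing).

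Receptors of the B cell surface had the lowest median of all lists described. Of 28 tested, 24 fell and 1 rose, and the median log2 change was -5.25 (-5.14 with undetected members set at 3 reads). Siglecg, an inhibitory lectin of B cells, had the largest fall of all genes tested, from 481, 456 and 485 FPKM in nB to 0 reads in all BMPC libraries (log2 change -8.89 ± 0.37, adjusted p = 4.57e-05, at least 1184-fold lower). Its relative Cd22 went from 314, 309 and 341 FPKM to 0 reads (at least 1576-fold lower), and the complement receptor gene Cr2 from 209, 208 and 156 FPKM to 0 reads (at least 1199.7-fold lower). Both inhibitory lectins and the complement receptor were thus undetected in each of the 3 BMPC mice.

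Ms4a1, which encodes CD20, stood at 581, 554 and 582 FPKM in nB and 2.07, 0 and 13.1 FPKM in BMPC (log2 change -7.35 ± 0.87, adjusted p = 0.00151), and Fcer2a (CD23) at 559, 634 and 767 FPKM and 0, 6.81 and 0 FPKM (log2 change -8.35 ± 0.80, adjusted p = 0.000688). BMPC replicate 2 was at 0 reads for Ms4a1 and was the single BMPC library with reads of Fcer2a. The inhibitory receptor Btla, the IgM receptor Fcmr and the receptors for interleukins 4, 21 and 10 fell as well, by 7.42, 7.85, 6.47, 5.25 and 5.61 on the log2 scale. Ptprc, the gene of CD45 and B220 and so of an antigen of the nB sort, fell by 4.14 ± 0.23. The costimulatory genes Cd86, Icosl and Cd40 fell with log2 changes of -5.24, -5.62 and -5.03. Cd24a rose with a log2 change of 1.04 ± 0.17. Cd52 did not pass and its groups overlapped (2469, 2261 and 2094 FPKM in nB, 2441, 1560.4 and 1989.5 FPKM in BMPC). Fcgr2b, the inhibitory Fc receptor, did not pass either (log2 change -1.18). Fits without a library did not pass for Cd40 (without any single nB library), at adjusted p = 0.0507 to 0.0553. Another setting also ended the call of Cd40 (with a pseudocount of 0.1). Without BMPC replicate 3, Cd24a had a log2 change of 0.97, below the required size. Without nB replicate 2, Cd24a had a log2 change of 0.93, below the required size.

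Most genes of signaling below the B cell receptor fell, while the signaling subunits of the receptor itself stayed abundant. Of 22 genes tested, 19 fell and 0 rose (median log2 change -3.46), beside 21.1% and 8.84% of all genes. In all 22 the BMPC libraries lay below the nB libraries, beside 34.8% of all genes. Cd79a and Cd79b, which carry the signal of surface immunoglobulin, stood at 2294, 2513 and 2351 FPKM and 3269.9, 2995 and 2618 FPKM in nB. In BMPC they stood at 639, 951 and 510 FPKM and 968, 663 and 649 FPKM, for log2 changes of -1.82 ± 0.21 and -1.98 ± 0.17. The kinases below them had log2 changes larger in size. Btk stood at 148, 231 and 225 FPKM in nB and 14.4, 0.104 and 0.761 FPKM in BMPC (log2 change -6.00 ± 0.95, adjusted p = 0.00421), and Lyn and Syk fell by 5.07 and 4.27 on the log2 scale. Blk, another Src family kinase, was at 52.1 FPKM in BMPC replicate 1 and at 0.111 FPKM or less in both other BMPC libraries, against 152, 150 and 172 FPKM in nB. The adaptors Bank1 and Pik3ap1 (BCAP) fell, Pik3ap1 from 58.0, 53.4 and 51.3 FPKM to 0 reads in each BMPC library (at least 239-fold lower). Blnk, Bcl10 and Dapp1 did not pass, with log2 changes of -0.93, -1.34 and -2.64. In fits that omitted a library, the call was lost for Blk (without BMPC replicate 2 or 3 or any single nB library), at adjusted p = 0.0681 to 0.106. Processed otherwise, the test was not passed by Blk (with no filter or a pseudocount of 0.1).

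The MHC class II pathway, by which B cells present antigen to T cells, fell in 11 of 15 genes and rose in none (median log2 change -4.35), and its summed level went from 22452 to 23313 FPKM in nB to 5038 to 8297 FPKM in BMPC. The alpha chain gene H2-Aa was the most reproducible, at 1916, 1899.8 and 1797 FPKM in nB and 37.5, 35.8 and 37.5 FPKM in BMPC (log2 change -5.63 ± 0.14, adjusted p = 2.81e-06). The beta chain gene H2-Ab1 stood at 3697, 4115 and 3668 FPKM and 305, 197 and 108 FPKM (log2 change -4.35 ± 0.33, adjusted p = 0.000288). H2-DMb2 and H2-Oa, whose products load peptides and regulate loading, fell by 8.43 ± 0.52 and 7.42 ± 1.11 on the log2 scale. Cd74, the invariant chain, fell far less, from 11239, 11163 and 10816 FPKM to 6402, 4890.2 and 3877 FPKM (log2 change -1.16 ± 0.16, adjusted p = 0.00255), and made up most of the sum that remained in BMPC. The promoter-binding factors Rfx5, Rfxank and Rfxap did not pass (log2 changes -2.07, -1.24 and 1.00). A change of processing ended the call of Cd74 (with median of ratios scaling). Without BMPC replicate 3, Cd74 had a log2 change of -0.98, below the required size.

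Receptors that place B cells in lymphoid tissue fell in 8 of 22 tested and rose in 1, beside 21.1% and 8.84% of all genes. Their median log2 change was -1.72, or -1.58 with undetected members set at 3 reads. Cxcr5, which directs cells to follicles, stood at 272, 339 and 302 FPKM in nB and 3.98, 1.80 and 0 FPKM in BMPC (log2 change -6.98 ± 0.61, adjusted p = 0.000484). Ccr7, which directs them to the T cell zone, stood at 148, 119.7 and 161 FPKM and 6.46, 0 and 0 FPKM (log2 change -6.19 ± 0.83, adjusted p = 0.00243), and Ccr6 at 200.1, 180.2 and 205 FPKM and 0 reads (at least 409-fold lower). S1pr1, the receptor for exit from lymph nodes, fell by 6.34 ± 0.50 on the log2 scale and Gpr183 by 3.26. Ccr10, a receptor of plasma cells, was the exception: it had 0 reads in nB and stood at 6.60, 19.5 and 1.597 FPKM in BMPC (log2 change 2.89 ± 0.77, adjusted p = 0.0277). Cxcr4, the receptor for the marrow chemokine Cxcl12, was higher on average but the groups overlapped, with 16.7, 6.27 and 10.5 FPKM in nB and 15.8, 32.0 and 24.6 FPKM in BMPC (log2 change 1.09 ± 0.54, adjusted p = 0.157). With a library left out, the test was no longer passed by Ccr10 (without BMPC replicate 1 or any single nB library), at adjusted p = 0.0588 to 0.0997. The call also did not hold for Ccr10 (with no filter).

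Receptors for microbial patterns and their partners fell in 9 of 15 genes and rose in none (median log2 change -2.57), beside 21.1% and 8.84% of all genes. Tlr1 went from 62.5, 78.9 and 74.6 FPKM to 0 reads in each BMPC library (at least 210.3-fold lower), and Tlr9, the sensor of unmethylated DNA, from 3.10, 3.39 and 3.24 FPKM to 0 reads (log2 change -2.08 ± 0.37, adjusted p = 0.00641). The nucleic acid sensor Tlr7, its chaperone Unc93b1 and the transporter Slc15a4 fell by 2.57, 3.24 and 3.25 on the log2 scale, and the factor Irf5 stood at 117, 142 and 127 FPKM in nB and 13.1, 0 and 2.61 FPKM in BMPC (log2 change -5.13 ± 0.90, adjusted p = 0.0061). Myd88, Tlr4 and Irf7 did not pass, with log2 changes of -1.29, -1.26 and -3.35. Calls that were lost on leaving out a library were those of Slc15a4 (without any single nB library), at adjusted p = 0.0669 to 0.0817. Another setting also ended the call of Slc15a4 (with a pseudocount of 0.1).

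**Figure D2:**
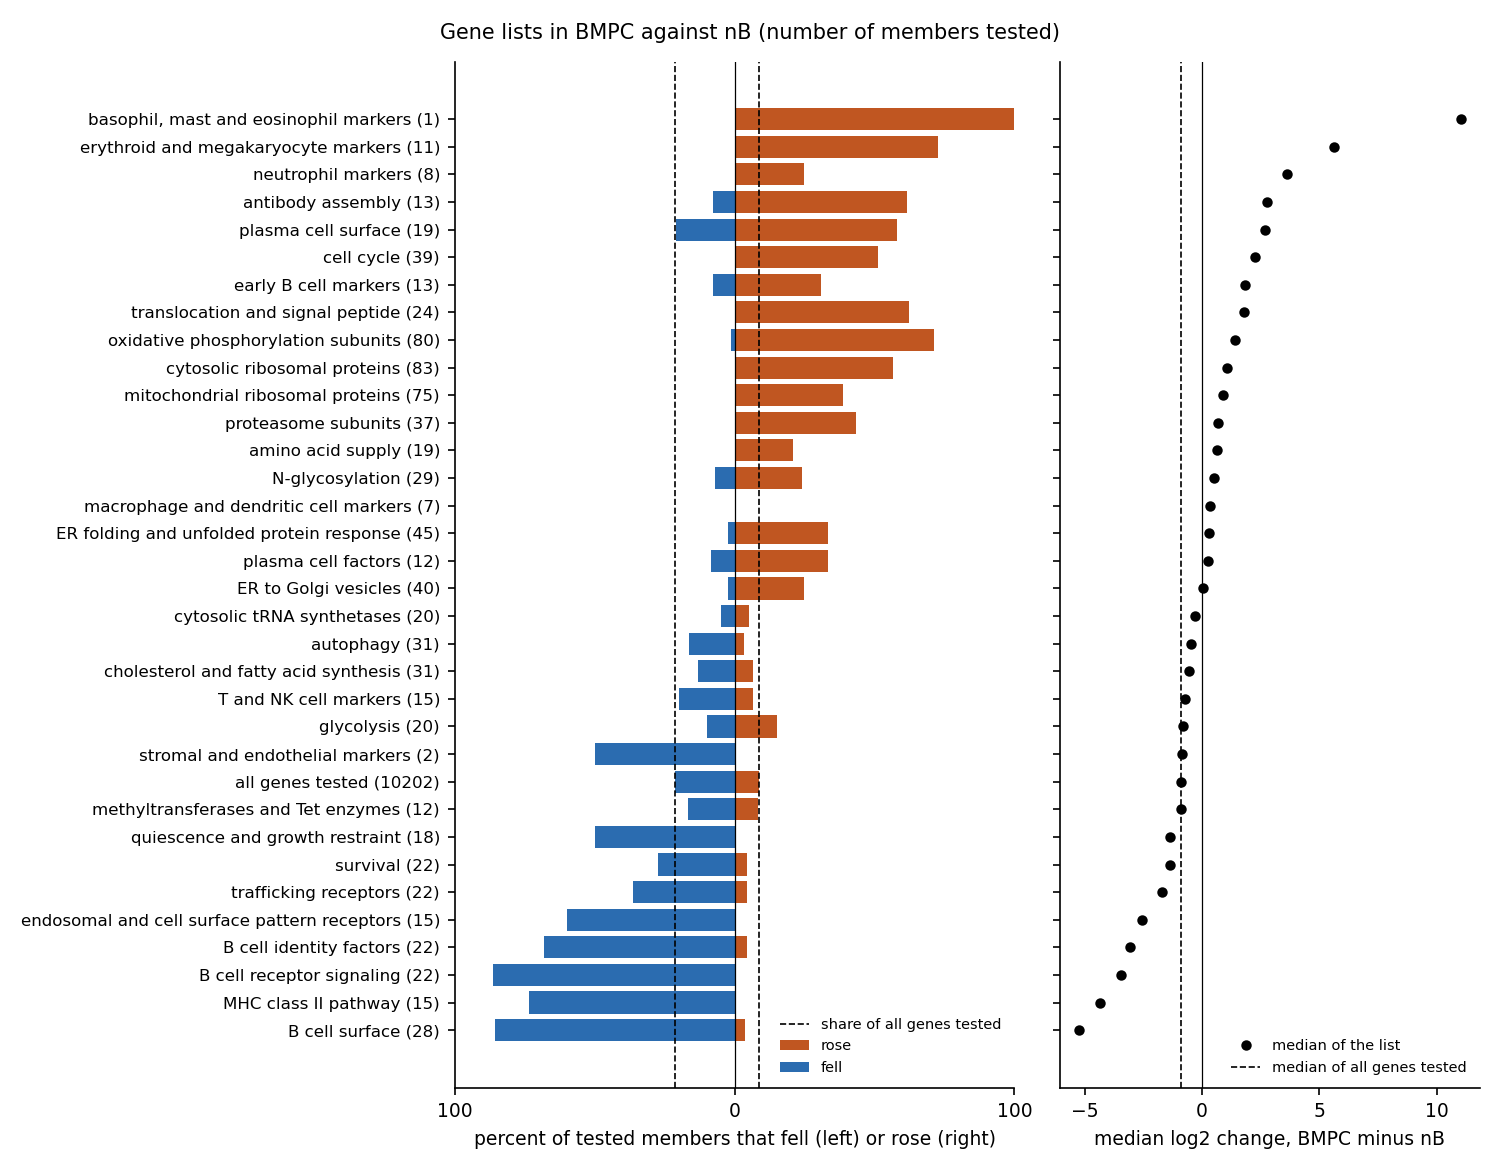
For each gene list, the left panel shows the percent of tested members that fell (blue) or rose (orange) in BMPC against nB, with dashed lines at 21.1% and 8.84% for all genes tested, and the right panel the median log2 change. B cell surface, MHC class II and B cell receptor signaling lists lie at the low end with medians of -5.25, -4.35 and -3.46. Antibody assembly, plasma cell surface, cell cycle and early B cell lists lie above 1.77. The highest medians are those of the basophil, erythroid and neutrophil marker lists, at 11.03 (1 gene tested), 5.62 and 3.64.

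Genes of antibody assembly rose in 8 of 13 and fell in 1 (median log2 change 2.79), and their summed level went from 945 to 1074 FPKM in nB to 20104 to 31138 FPKM in BMPC, of which Jchain made up most. Mzb1, a cofactor that helps immunoglobulin fold, was already at 355, 368 and 273 FPKM in nB and stood at 2622, 2370.2 and 1908 FPKM in BMPC (log2 change 2.79 ± 0.16, adjusted p = 0.00013). Derl3, a channel component that exports misfolded proteins from the ER, stood at 6.60, 0 and 1.42 FPKM in nB and 397, 256 and 112 FPKM in BMPC (log2 change 6.42 ± 0.82, adjusted p = 0.00202). Prdx4, a peroxiredoxin that forms disulfide bonds in the ER, stood at 12.3, 12.2 and 16.9 FPKM and 424, 302 and 326 FPKM (log2 change 4.57 ± 0.29, adjusted p = 0.000149). In all 3 genes every BMPC library was above every nB library.

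Fkbp11, a prolyl isomerase of secretory cells, stood at 12.4, 9.05 and 15.9 FPKM in nB and 329, 312 and 207 FPKM in BMPC (log2 change 4.40 ± 0.34, adjusted p = 0.000308). Hsp90b1, the chaperone Grp94, rose from 279, 235 and 247 FPKM to 810.2, 548 and 608 FPKM (log2 change 1.35 ± 0.18, adjusted p = 0.0023), and Edem2 and Glrx rose with log2 changes of 2.79 and 3.09. The disulfide isomerase gene Pdia4, Txndc5, Erp44 and the oxidase gene Ero1lb did not pass (log2 changes 0.95, 0.78, 0.46 and -1.59). Pigr, the epithelial receptor for polymeric immunoglobulin, fell by 1.86 ± 0.39 on the log2 scale.

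ER folding and the unfolded protein response divided within the list. Of 45 genes tested, 15 rose and 1 fell, with a median log2 change of 0.30. The other 29 did not pass. Sdf2l1, a stress-induced partner of the chaperone BiP, stood at 7.15, 14.4 and 1.10 FPKM in nB and 136, 102 and 88.8 FPKM in BMPC (log2 change 4.07 ± 0.73, adjusted p = 0.00658). Manf, a secreted factor of the stressed ER, stood at 29.3, 39.3 and 23.7 FPKM and 274, 281 and 187 FPKM (log2 change 2.97 ± 0.30, adjusted p = 0.000845), and Edem1, which hands misfolded glycoproteins to degradation, at 11.0, 24.6 and 11.0 FPKM and 121, 144 and 95.7 FPKM (log2 change 2.95 ± 0.42, adjusted p = 0.00288). The isomerase gene Fkbp2 was close to uniform within each group, at 51.9, 67.0 and 63.4 FPKM and 512, 478 and 485 FPKM (log2 change 3.003 ± 0.19, adjusted p = 0.000149). Creld2, Derl1, Ube2j1, Dnajb9, Ppib, Selk, Sel1l, Dnajc3, Herpud1, Vimp and Canx rose with log2 changes of 1.57 to 2.66. Leaving out a library ended the calls of Derl1 (without BMPC replicate 2 or 3 or any single nB library) and Dnajc3 (without BMPC replicate 1 or any single nB library), at adjusted p = 0.0517 to 0.104.

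Several folding genes of the ER did not pass, while Hsp90b1 and Canx rose. Hspa5 (BiP), which holds unassembled heavy chains, stood at 362, 508 and 419.8 FPKM in nB and 819, 582 and 503 FPKM in BMPC, and the groups overlapped (log2 change 0.54 ± 0.21, adjusted p = 0.092). Calr, P4hb, Hyou1, Pdia6 and Pdia3 did not pass, with log2 changes of 0.39, 0.39, 0.30, 0.14 and -0.38. The sensor Ern1 (IRE1), which activates Xbp1, had a log2 change of 1.55 ± 0.76, and Ddit3 (CHOP), the factor linked to death under ER stress, of 0.06 ± 0.52, and neither passed. Syvn1, the ubiquitin ligase Hrd1, fell from 41.5, 45.7 and 47.9 FPKM to 10.9, 19.0 and 7.41 FPKM (log2 change -1.87 ± 0.45, adjusted p = 0.0196), although its partner Sel1l rose. Fits without a library did not pass for Syvn1 (without any single nB library), at adjusted p = 0.0629 to 0.0735.

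The promoters of ER genes carry a known response element, the ER stress element, bound by NF-Y together with Atf6 or Xbp1. It was searched as CCAAT, any 9 bases, then CCACG, on both strands, from 250 bases before to 50 after each start in the RefSeq promoter table of build GRCm38.p6. Promoters of 6 ER genes are shown because the same element stood before genes that rose, a gene that did not pass and a gene that fell. Capitals mark the 19 bases of the element as read on the strand of the gene, so an element on the opposite strand reads from CGTGG to ATTGG.
Derl3, chr10:75893217-75893285, plus strand: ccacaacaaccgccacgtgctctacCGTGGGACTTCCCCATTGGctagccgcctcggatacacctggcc
Creld2, chr15:88819495-88819563, plus strand: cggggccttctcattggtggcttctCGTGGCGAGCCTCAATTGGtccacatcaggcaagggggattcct
Dnajc3, chr14:118937802-118937870, plus strand: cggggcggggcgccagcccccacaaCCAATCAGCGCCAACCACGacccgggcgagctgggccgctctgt
Canx, chr11:50325775-50325843, minus strand: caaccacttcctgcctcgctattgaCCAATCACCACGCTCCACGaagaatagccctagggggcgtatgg
Hspa5, chr2:34772000-34772068, plus strand: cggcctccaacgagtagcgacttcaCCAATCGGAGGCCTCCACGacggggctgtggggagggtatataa
Syvn1, chr19:6046507-6046575, plus strand: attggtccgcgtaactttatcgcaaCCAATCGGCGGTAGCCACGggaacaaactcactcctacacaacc

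Of these 6 genes, Derl3 (log2 change 6.42), Creld2 (2.66), Dnajc3 (1.85) and Canx (1.57) rose, Hspa5 (0.54) did not pass and Syvn1 (-1.87) fell. The element stands in the window of 37 of 27025 genes of the table (0.137%) and of 16 of 8161 genes tested (0.196%). It was found in 5 of 727 genes that rose (0.688%) and in 1 of 1706 that fell (0.0586%). All 5 of the former belong to the secretory lists, the fifth being Hsp90b1 with 2 elements. By list it stood before 7 of 40 genes of ER folding (17.5%) and 3 of 12 of antibody assembly (25%), but before 0 of 17 translocation genes and 0 of 36 genes of vesicle transport. The remaining holders among the tested ER genes were Calr, Pdia6, Ero1lb and Alg12, and none of them passed. Creld2 and Alg12 are divergent neighbors that share the same element, and their log2 changes were 2.66 ± 0.38 and -2.25 ± 0.96. The element was first defined in genes of this response, so its presence in the list is no independent finding, and a match is a description of the letters only.

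Most genes of the entry gate of the ER rose. Of 24 genes of translocation and signal peptide cleavage, 15 rose and 0 fell (median log2 change 1.77), beside 8.84% and 21.1% of all genes. In 19 every BMPC library was above every nB library, beside 13.9% of all genes. The summed level went from 1896 to 1963 FPKM in nB to 8568 to 10865 FPKM in BMPC. Sec61a1, the pore of the channel, stood at 42.8, 52.4 and 56.2 FPKM in nB and 202, 221 and 150.4 FPKM in BMPC (log2 change 1.89 ± 0.26, adjusted p = 0.00261), and the other 2 subunits, Sec61b and Sec61g, had log2 changes of 2.14 and 1.95. All 4 subunits of the translocon-associated TRAP complex rose. The highest was Ssr4, at 192, 174 and 193 FPKM in nB and 2898, 2002 and 1843 FPKM in BMPC (log2 change 3.56 ± 0.18, adjusted p = 9e-05), and Ssr2, Ssr3 and Ssr1 followed with 2.37, 2.35 and 1.82. The signal peptidase subunits Sec11c (216, 208 and 271 FPKM to 2299, 2221 and 1699 FPKM, log2 change 3.15 ± 0.16, adjusted p = 9e-05) and Spcs1 (96.1, 85.8 and 85.5 FPKM to 875, 781 and 639 FPKM, log2 change 3.08 ± 0.18, adjusted p = 0.00013) rose, while Sec11a, the other catalytic subunit, did not pass (log2 change 0.55). Of the signal recognition particle, which brings ribosomes to the channel, Srp9 and Srp19 rose (log2 changes 1.49 and 2.26) and Srp68 did not pass (-0.84).

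N-glycosylation rose in 7 of 29 genes and fell in 2 (median log2 change 0.52), beside 8.84% and 21.1% of all genes. Members of the oligosaccharyltransferase, which transfers the sugar chain to the antibody, differed. Krtcap2 stood at 185, 232 and 199 FPKM in nB and 1084, 1057 and 1003 FPKM in BMPC (log2 change 2.35 ± 0.13, adjusted p = 0.000126), and Ddost, Ostc, Tmem258 and Dad1 had log2 changes of 2.67, 2.11, 1.72 and 1.25 and rose. The catalytic subunit genes Stt3a and Stt3b and the further subunit genes Rpn1 and Rpn2 did not pass, with 0.02, 0.39, -0.01 and 0.71, and Rpn1 overlapped (47.8, 76.9 and 65.3 FPKM in nB, 34.8, 83.5 and 80.0 FPKM in BMPC). Alg5, which primes the dolichol carrier with glucose, rose (log2 change 2.31 ± 0.37, adjusted p = 0.00444), and Dolpp1, which recycles dolichol, and the glucosidase gene Ganab fell by 3.05 and 2.06 on the log2 scale. In fits that omitted a library, the call was lost for Ddost (without BMPC replicate 3 or nB replicate 1 or 3), Dolpp1 (without BMPC replicate 3 or any single nB library) and Ganab (without any single nB library), at adjusted p = 0.0524 to 0.0936. Processed otherwise, the test was not passed by Dolpp1 (under at least 4 other ways of processing).

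Of the genes of ER to Golgi transport, 10 of 40 rose and 1 fell, and the list as a whole had a median log2 change of 0.03. Cargo receptors led. Kdelr2, which returns escaped ER proteins, stood at 71.1, 48.9 and 40.1 FPKM in nB and 428, 484 and 232 FPKM in BMPC (log2 change 2.78 ± 0.35, adjusted p = 0.00194), and the p24 family member Tmed10 at 54.7, 71.5 and 74.9 FPKM and 331, 352 and 321 FPKM (log2 change 2.32 ± 0.21, adjusted p = 0.00052). The fusion factor Bet1 (log2 change 2.096 ± 0.41, adjusted p = 0.00898) and Yipf5 (log2 change 2.15 ± 0.45, adjusted p = 0.0117) rose as well. Among coat subunits only Sec24d of COPII and Cope of COPI rose (log2 changes 1.97 and 1.18). Sec23b stood at 76.8, 68.0 and 74.3 FPKM and 43.1, 101 and 17.0 FPKM with overlapping groups, and Copa had a log2 change of -0.67. Golgb1, the tether giantin, fell by 2.05 ± 0.56 on the log2 scale. With a library left out, the test was no longer passed by Sec24d and Golgb1 (without BMPC replicate 1 or 3 or any single nB library), at adjusted p = 0.0515 to 0.134. A change of processing ended the call of Sec24d (under at least 4 other ways of processing) and Golgb1 (with a pseudocount of 0.1 or sex in the model or voom on recovered reads).

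**Figure D3:**
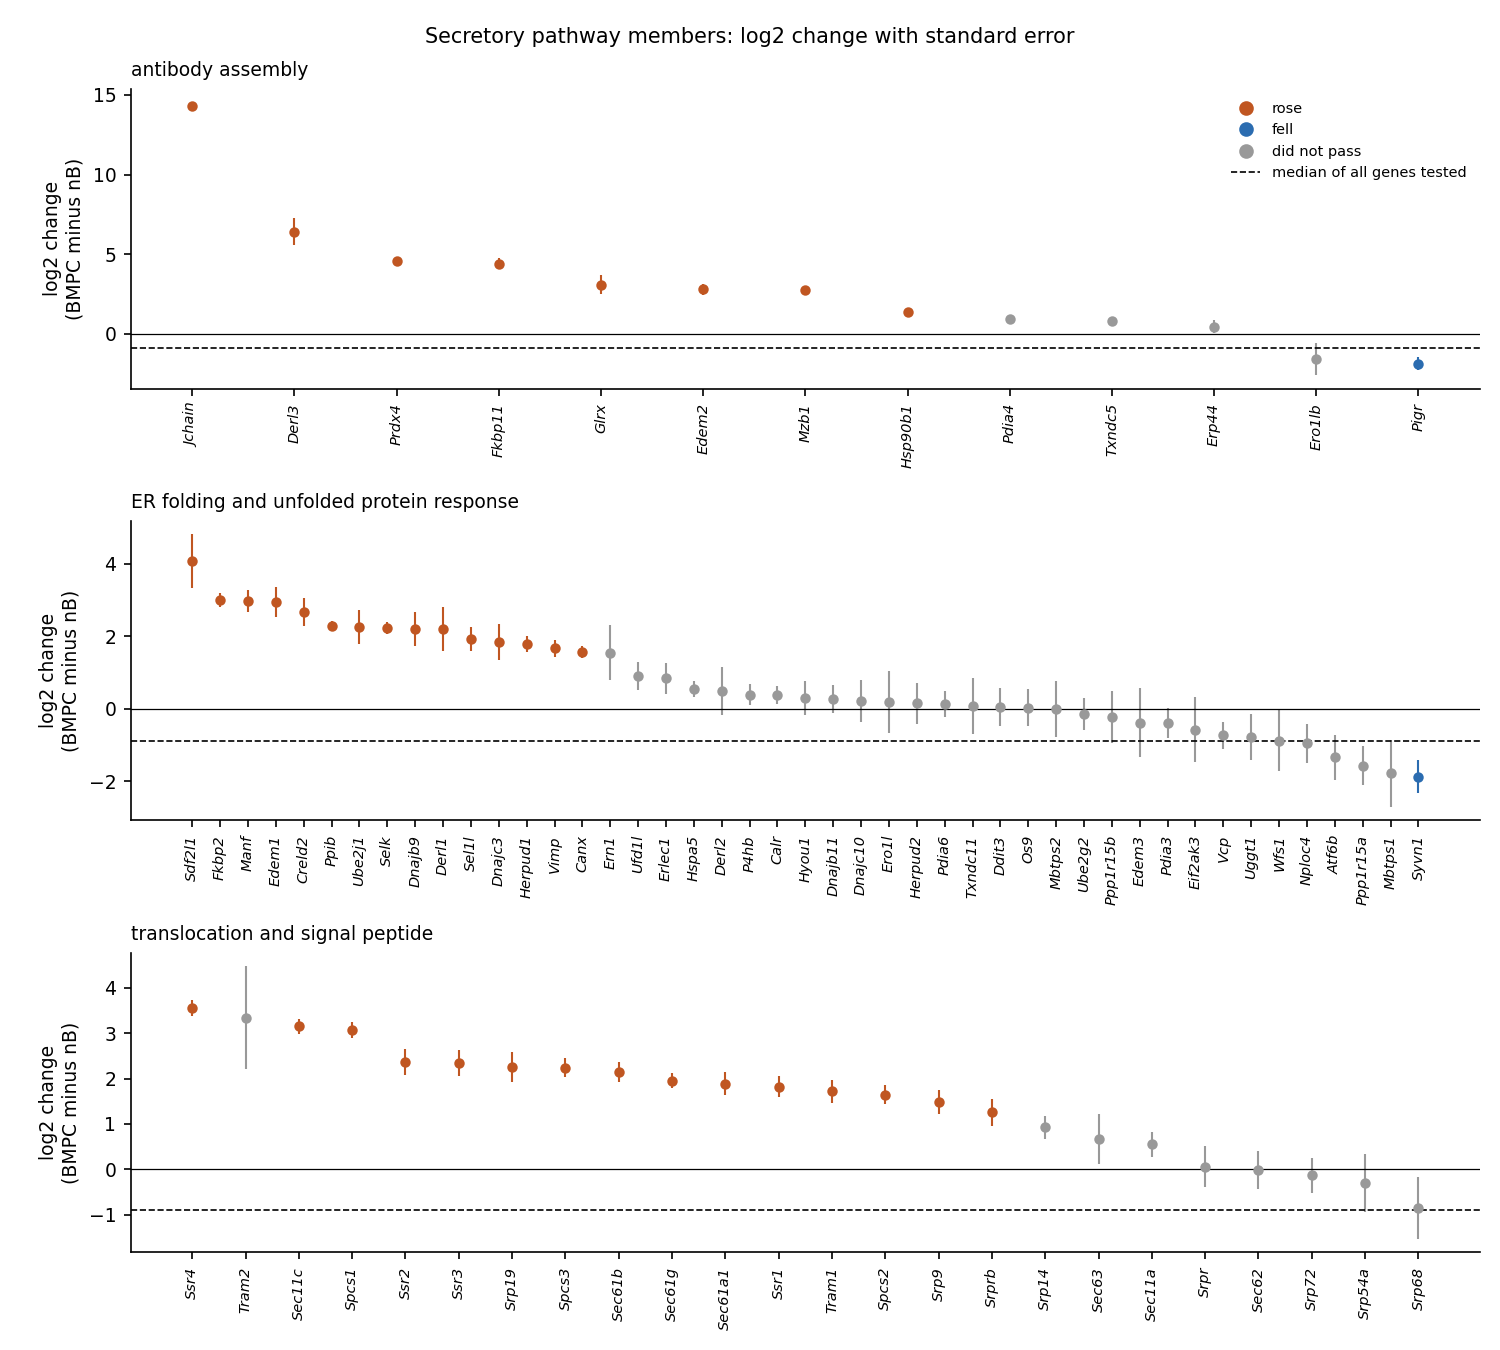
Log2 change of each tested member of 3 secretory lists, BMPC minus nB, with its standard error, in orange for genes that rose, blue for genes that fell and grey for genes that did not pass. The dashed line is the median of all genes tested, at -0.89, and most translocation genes lie above 1 while 29 of the 45 genes of ER folding are grey.

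Genes of amino acid supply rose in 4 of 19 and fell in none (median log2 change 0.63), beside 8.84% and 21.1% of all genes. Asns, asparagine synthetase and a target of Atf4, had 0 reads in nB and stood at 216, 273 and 324 FPKM in BMPC (log2 change 8.07 ± 0.43, adjusted p = 0.000107), at least 1334-fold higher with each nB library set at 3 reads. Pycr1, of proline synthesis, stood at 0.161, 2.12 and 0.421 FPKM in nB and 22.9, 58.1 and 33.8 FPKM in BMPC (log2 change 4.41 ± 0.66, adjusted p = 0.00352). Psph, of serine synthesis, stood at 2.82, 16.9 and 6.30 FPKM and 22.2, 167 and 93.9 FPKM (log2 change 3.18 ± 0.87, adjusted p = 0.0302), and BMPC replicate 1 lay just above the highest nB library. Slc3a2 and Slc7a5, which form the large neutral amino acid transporter, were higher in every BMPC library but did not pass, at 27.2, 34.2 and 33.0 FPKM against 151, 71.5 and 45.5 FPKM (log2 change 1.31 ± 0.47, adjusted p = 0.0711) and 7.69, 1.65 and 5.57 FPKM against 11.6, 10.6 and 23.4 FPKM (log2 change 1.52 ± 0.67, adjusted p = 0.122). Without nB replicate 1 or 3, 2 genes of the list rose in place of 4. Of 20 cytosolic tRNA synthetases, Hars rose (1.74 ± 0.38), Vars fell by 2.71 ± 0.61 and 18 did not pass (median -0.31). Calls that were lost on leaving out a library were those of Psph (without BMPC replicate 2 or 3 or nB replicate 1 or 3) and Vars (without nB replicate 1 or 2), at adjusted p = 0.0619 to 0.113. Another setting also ended the call of Psph (with no filter or library weights or voom on recovered reads) and Vars (with voom on recovered reads).

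More of the genes of ribosomes and oxidative phosphorylation rose than of all genes tested (8.84%). FPKM is relative to reads on listed genes, and whether these lists rose per total mRNA was not tested. Of 83 cytosolic ribosomal protein genes, 47 rose and 0 fell (median log2 change 1.05), and in 79 every BMPC library was above every nB library, beside 13.9% of all genes. Their summed level went from 55656 to 66537 FPKM to 117950 to 128431 FPKM. Rps14 stood at 1540.3, 1508 and 1389.7 FPKM in nB and 4265, 3837 and 3797 FPKM in BMPC (log2 change 1.42 ± 0.07, adjusted p = 9e-05). Many members lay close to the required change of 1, and their number ranged from 39 to 78 over the alternative settings. Subunits of oxidative phosphorylation rose in 57 of 80 and fell in 1 (median 1.39), and their sum went from 11233 to 12309 FPKM to 30490.3 to 34082 FPKM. Ndufb9 of complex I stood at 158, 163 and 148 FPKM and 915, 775 and 979 FPKM (log2 change 2.50 ± 0.14, adjusted p = 0.00013), and the testis-type subunit gene Cox6b2 at 1.73, 0 and 0 FPKM and 115, 155 and 147 FPKM (log2 change 6.63 ± 0.57, adjusted p = 0.000456).

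Mitochondrial ribosomal proteins rose in 29 of 75 and fell in none (median 0.90), led by Mrps28 (36.4, 24.4 and 19.0 FPKM in nB, 209, 208 and 277 FPKM in BMPC, log2 change 3.11 ± 0.32, adjusted p = 0.000879). Over the alternative settings their number ranged from 14, at an adjusted p of 0.01, to 35. Proteasome subunits rose in 16 of 37 and fell in none (median 0.68). Of these 16, 12 belong to the 20S core and 4, Psmc2, Psmc3, Psmc6 and Psmd14, to the regulatory cap. Psmb7 of the core stood at 24.0, 19.0 and 19.5 FPKM in nB and 80.2, 117 and 80.9 FPKM in BMPC (log2 change 2.09 ± 0.33, adjusted p = 0.00403). Psmb8, a catalytic subunit of the immunoproteasome, did not pass (log2 change -0.53). Of 18 genes that every cell uses, 8 rose and 1 fell (median 0.68). Ppia, the gene of cyclophilin A, rose (log2 change 1.44 ± 0.09, adjusted p = 0.00015), Polr2a, of RNA polymerase II, fell (log2 change -1.56 ± 0.48, adjusted p = 0.0457), and Actb did not reach the required change (log2 change -0.67 ± 0.17, adjusted p = 0.0215). Leaving out a library ended the calls of Psmd14 (without nB replicate 2) and Polr2a (without BMPC replicate 1 or 3 or any single nB library), at adjusted p = 0.0501 to 0.165. A change of processing ended the call of Polr2a (under at least 4 other ways of processing). Without nB replicate 3, Psmc3 had a log2 change of 0.90, below the required size. Without nB replicate 3, Psmd14 had a log2 change of 0.85, below the required size.

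Genes of the cell cycle were higher in the BMPC libraries. Of 39 tested, 20 rose and 0 fell (median log2 change 2.27). Rrm2, which makes deoxynucleotides, stood at 0, 4.26 and 0.766 FPKM in nB and 245, 347 and 378 FPKM in BMPC (log2 change 7.25 ± 0.64, adjusted p = 0.00051). Cdk1, the mitotic kinase, had 0 reads in nB and stood at 43.9, 36.2 and 92.2 FPKM in BMPC (log2 change 5.75 ± 0.59, adjusted p = 0.000879, at least 419.8-fold higher), and the proliferation marker Mki67 stood at 0.0445, 0 and 0 FPKM and 12.4, 18.4 and 19.8 FPKM (log2 change 4.11 ± 0.53, adjusted p = 0.00205). All 3 BMPC mice showed the rise, and nB were close to 0 in each gene. Ccnb2, Birc5, Ccnb1, Tyms, Gins1, Ccna2, Top2a, Tk1, E2f1, Pcna, Mcm6 and Mcm7 also rose (log2 changes 1.66 to 5.21). The helicase subunit gene Mcm2 and the mitotic genes Plk1 and Cdc20 did not pass (log2 changes 0.68, 2.64 and 1.53). Fits without a library did not pass for Mcm6 (without BMPC replicate 1 or nB replicate 1 or 3) and Mcm7 (without any single nB library), at adjusted p = 0.0532 to 0.0863. The call also did not hold for Mcm6 (with library weights) and Mcm7 (with sex in the model).

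The summed cell cycle level was 305, 407 and 398 FPKM in nB and 1725, 2121 and 2182 FPKM in BMPC, beside 5766, 6137 and 5692 FPKM in the Dnmt3-sufficient germinal center B cells (GCB), which are known to divide rapidly. Against GCB, none of 39 genes were higher in BMPC and 23 were lower (of all genes, 6.13% and 15.7%), with a median log2 difference of -1.98. The comparison with GCB shares its BMPC libraries with the comparison with nB. The same 3 BMPC libraries held summed erythroid markers of 7107 to 10716 FPKM and early B cell markers of 785 to 873 FPKM. In nB the sums were 64.3 to 74.0 FPKM and 252 to 278 FPKM. The early B cell sums were mostly Vpreb3 and Dntt, and both marker lists are described further on. Their part in the cell cycle, ribosomal and mitochondrial results was not tested.

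Genes of cell survival fell in 6 of 22 and rose in 1 (median log2 change -1.38), beside 21.1% and 8.84% of all genes. The share of falls was near that of all genes. In 15 of the 22 every BMPC library lay below every nB library, beside 34.8% of all genes. The summed level of the list was 660 to 750 FPKM in nB and 299 to 400 FPKM in BMPC. Mcl1, on which plasma cells are known to depend, was at 114, 107 and 80.9 FPKM in nB and 45.1, 79.8 and 48.8 FPKM in BMPC and did not pass (log2 change -0.82 ± 0.32, adjusted p = 0.0931). Bcl2 stood at 23.8, 36.3 and 24.2 FPKM and 12.7, 5.20 and 9.33 FPKM (log2 change -1.58 ± 0.50, adjusted p = 0.0493), and Birc3, an inhibitor of apoptosis, at 64.2, 106 and 106 FPKM and 19.3, 0.386 and 4.86 FPKM (log2 change -4.05 ± 0.92, adjusted p = 0.0159). Bcl2 passed narrowly. The death-promoting Pmaip1 (Noxa) fell by 2.82 on the log2 scale, and Bcl2l11 (Bim) did not pass (-1.30). Without nB replicate 1, 1 gene of the list fell, and without nB replicate 2 or 3, 2 genes fell. Bcl2a1a and Bcl2a1d fell and Bcl2a1b did not pass, but these copies are near-identical and their reads may be split between them. In fits that omitted a library, the call was lost for Bcl2 (without BMPC replicate 2 or 3 or any single nB library), Birc3 and Bcl2a1d (without any single nB library) and Bcl2a1a (without BMPC replicate 1 or any single nB library), at adjusted p = 0.054 to 0.18. Processed otherwise, the test was not passed by Bcl2, Bcl2a1a and Bcl2a1d (under at least 4 other ways of processing) and Birc3 (with voom on recovered reads).

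Factors of quiescence fell in 9 of 18 and rose in none (median -1.36). Ccnd3, a D-type cyclin that drives lymphocytes into the cycle rather than restraining it, stood at 34.0, 55.2 and 43.4 FPKM in nB and 0.751, 0.461 and 3.98 FPKM in BMPC (log2 change -4.25 ± 0.64, adjusted p = 0.00364), the antiproliferative gene Btg1 fell by 2.60 ± 0.42 on the log2 scale and Klf3 by 2.84 ± 0.77. Klf2, which keeps naive lymphocytes at rest, stood at 31.1, 12.7 and 23.0 FPKM and 0, 8.40 and 10.5 FPKM and did not pass (log2 change -2.20 ± 1.00, adjusted p = 0.129). The number of these genes that fell was 2 without any 1 of the nB replicates, 5 without BMPC replicate 1 or 2, and 3 with median of ratios scaling. Of 31 autophagy genes, 1 rose (3.23%) and 5 fell (16.1%), both below the 8.84% and 21.1% of all genes tested, so by these counts the list did not stand out. Its summed level was nonetheless higher in every BMPC library, at 1560, 1675 and 1400 FPKM beside 1087, 1080 and 1130 FPKM in nB. Map1lc3b, which encodes the membrane protein LC3B, rose (log2 change 1.31 ± 0.17, adjusted p = 0.00205), and Atg7 (log2 change -3.72 ± 0.58, adjusted p = 0.00399), the kinase gene Ulk1, Rb1cc1, Tfeb and Pik3r4 fell. Atg5, which plasma cells are known to need, was uneven in BMPC, at 30.4, 0.112 and 52.2 FPKM beside 30.8, 27.1 and 31.1 FPKM in nB. With a library left out, the test was no longer passed by Klf3 (without BMPC replicate 1 or 2 or any single nB library) and Rb1cc1 (without BMPC replicate 2 or 3 or any single nB library), at adjusted p = 0.0563 to 0.127. A change of processing ended the call of Klf3 (with no filter or a pseudocount of 0.1) and Rb1cc1 (under at least 4 other ways of processing).

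By counts of calls, lists of lipid and sugar metabolism did not stand out from all genes tested, of which 8.84% rose and 21.1% fell. Of 31 genes of cholesterol and fatty acid synthesis, 2 rose (6.45%) and 4 fell (12.9%), or 2 without any 1 of the nB replicates. Scd1, a fatty acid desaturase, stood at 269, 216 and 274 FPKM in nB and 2.35, 0.0544 and 0.797 FPKM in BMPC (log2 change -7.09 ± 0.52, adjusted p = 0.000263), whereas Fdps and Insig1 rose (log2 changes 2.03 and 1.93). Of 20 glycolysis genes, 3 rose (15%) and 2 fell (10%), the median log2 change was -0.83 beside -0.89 over all genes, and the summed levels of the groups overlapped (1447 to 1635 FPKM in nB, 1448 to 1593 FPKM in BMPC). The enzymes Tpi1, Gapdh and Pgk1 rose (1.72, 1.08 and 1.07) and the glucose transporters Slc2a1 and Slc2a3 fell, Slc2a1 from 18.7, 20.1 and 15.4 FPKM to 1.24, 0 and 0 FPKM (log2 change -3.86 ± 0.60, adjusted p = 0.00395). Of 12 genes of DNA methyltransferases, Tet enzymes and related proteins, 1 rose (8.33%) and 2 fell (16.7%), again near the shares of all genes. Dnmt3a, intact in these mice, stood at 5.18, 3.48 and 2.35 FPKM in nB and 0.768, 0 and 0.734 FPKM in BMPC (log2 change -1.64 ± 0.50, adjusted p = 0.044), and Dnmt3b at 1.18, 4.33 and 6.41 FPKM and 1.37, 0 and 0 FPKM with overlapping groups (log2 change -1.73 ± 0.64, adjusted p = 0.0807). The maintenance enzyme Dnmt1 overlapped too (log2 change -0.23 ± 0.58, adjusted p = 0.789), its cofactor Uhrf1 rose (log2 change 2.81 ± 0.90, adjusted p = 0.05) and the oxygenase gene Tet3 fell by 2.13. Uhrf1, Dnmt3a and Tet3 all lay close to the threshold. Calls that were lost on leaving out a library were those of Fdps (without BMPC replicate 1 or 2 or nB replicate 2 or 3), Insig1 (without any single nB library), Gapdh (without BMPC replicate 3 or any single nB library), Pgk1 (without BMPC replicate 1 or 2 or any single nB library), Dnmt3a (without any single library), Uhrf1 (without any single BMPC library or nB replicate 1 or 2) and Tet3 (without BMPC replicate 1 or 3 or any single nB library), at adjusted p = 0.0513 to 0.151. The call also did not hold for Tpi1 (with all 18 libraries), Pgk1 (with sex in the model or voom on recovered reads) and Dnmt3a, Uhrf1 and Tet3 (under at least 4 other ways of processing).

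Markers of other marrow cells were present in the BMPC libraries. Of 16 erythroid and megakaryocyte markers in the table, 11 were tested and 8 rose, and the summed level was 74.0, 66.0 and 64.3 FPKM in nB and 7136, 7107 and 10716 FPKM in BMPC. Car1, an erythroid carbonic anhydrase, had 0 reads in nB and stood at 2864, 3446 and 4308 FPKM in BMPC (log2 change 11.77 ± 0.29, adjusted p = 2.81e-06, at least 11286-fold higher). Car2 stood at 54.9, 54.9 and 45.8 FPKM and 2462, 2158 and 3286 FPKM (log2 change 5.62 ± 0.19, adjusted p = 1.21e-05). These genes exceeded most plasma cell genes in level. The erythroid factors Gata1 and Klf1 had 0 reads in nB and stood at 96.2, 8.29 and 127 FPKM and 29.4, 3.09 and 34.7 FPKM in BMPC, with replicate 2 the lowest in both. The globin genes Hba-a2, Hbb-bs and Hbb-b1 stood at 313 to 1047 FPKM in BMPC and at 0.808 FPKM or less in nB, and reads of near-identical globin copies may be split. Alas2 was at 0 in 2 BMPC libraries and at 22.3 FPKM in replicate 3, Slc4a1 at 1.21 FPKM or less, and the platelet genes Pf4 and Ppbp at 0 in all 6 libraries. Leaving out a library ended the calls of Klf1 (without any single nB library), at adjusted p = 0.0624 to 0.0628.

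Early B cell markers rose in 4 of 13 and fell in 1 (9 rose without BMPC replicate 2), and their sum was 253, 278 and 252 FPKM in nB and 796, 785 and 873 FPKM in BMPC. Vpreb3 made up most of the nB sum, at 247, 269 and 216 FPKM, and stood at 354, 337 and 171 FPKM in BMPC. Vpreb3 and Dntt together made up most of the BMPC sum. Dntt, the terminal transferase of precursor cells, stood at 1.47, 2.58 and 22.3 FPKM and 329, 330 and 581 FPKM (log2 change 6.08 ± 0.82, adjusted p = 0.00247), and Igll1, of the surrogate light chain, at 0.276, 0.121 and 0.206 FPKM and 11.8, 10.8 and 14.8 FPKM (log2 change 3.48 ± 0.51, adjusted p = 0.00328). Cd34 and Myb rose, and Rag1 and Rag2 stood at 2.25, 0 and 0.0827 FPKM and 9.26, 0.0775 and 14.0 FPKM in BMPC. Pax5 and Ebf1, which pro-B and pre-B cells also express, were at 0.578 FPKM or less in the same libraries. Fits without a library did not pass for Myb (without nB replicate 1 or 2), at adjusted p = 0.0678 to 0.0745. Processed otherwise, the test was not passed by Myb (with a pseudocount of 0.1).

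Of 15 neutrophil markers, 4 to 10 had reads in a BMPC library, with sums of 566, 110.5 and 199 FPKM beside at most 0.0317 FPKM in nB. S100a8 stood at 257, 34.2 and 24.6 FPKM and Prtn3 at 22.6, 16.4 and 19.6 FPKM, and both rose, while Elane, Mpo and S100a9 were at 0 in 1 BMPC library each and did not pass. Cebpe, Lcn2, Mmp8 and Mmp9 were at 0 in all 6 libraries. Of 13 markers of basophils, mast cells and eosinophils, 11 were at 0 in all 6 libraries, among them Epx, Prg3, Siglecf and Mcpt8, and Cpa3 was at 0.313, 0 and 54.4 FPKM. Prg2 alone was high, with 0 reads in nB and 2279.9, 1724 and 2326 FPKM in BMPC (log2 change 11.03 ± 0.30, adjusted p = 4.27e-06).

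Macrophage and dendritic cell markers summed to 1756 to 1805 FPKM in nB and 1921 to 2186 FPKM in BMPC, nearly all of it Ly6d, none of 7 tested members passed, and Cd14, C1qa, C1qc and Mrc1 were at 0 in all 6 libraries. T and NK cell markers summed to 122 to 265 FPKM and 208 to 355 FPKM (exact permutation p = 0.2, two-sided), where Cd3g rose and Cd8b1, Gzma and Cd5 fell to 0 reads. Stromal and endothelial markers summed to 92.7 to 134 FPKM and 14.6 to 29.4 FPKM, mostly Pecam1, which fell. For the other lists the groups did not overlap and the exact permutation p was 0.1, the smallest that 3 against 3 libraries allow. Xist and 4 Y-linked genes matched the labelled sex in all 6 libraries, and none of the 4 of these that were tested passed. The part of these cells in the results above was not tested. In fits that omitted a library, the call was lost for Cd3g (without BMPC replicate 2 or 3 or any single nB library) and Cd8b1 (without nB replicate 2), at adjusted p = 0.0693 to 0.156. The call also did not hold for Cd3g (under at least 4 other ways of processing).

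**Figure D4:**
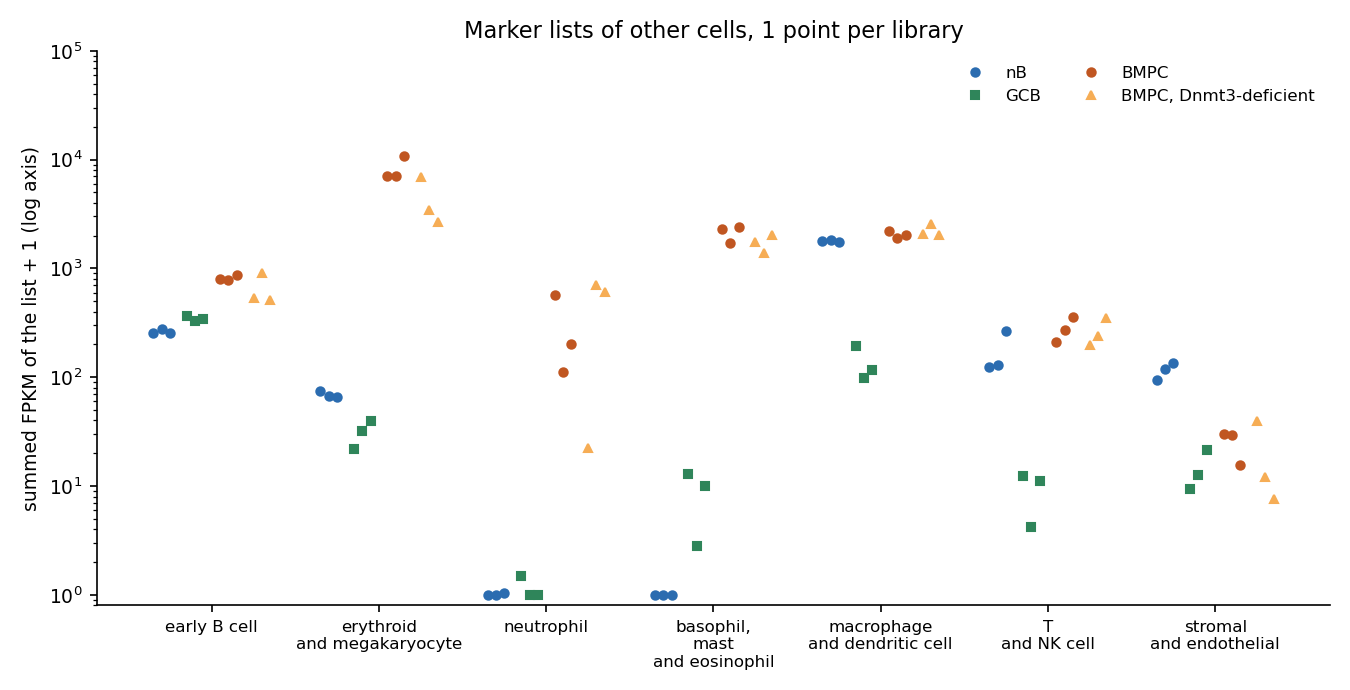
Summed FPKM of 7 marker lists of other cells (log axis, 1 added), with 1 point per library for nB, GCB and BMPC of Dnmt3-sufficient mice and BMPC of Dnmt3-deficient mice. The erythroid sums lie at 7107 to 10716 FPKM in Dnmt3-sufficient BMPC and at 64.3 to 74.0 FPKM in nB. The macrophage and dendritic cell sums of nB and BMPC, nearly all of them Ly6d, lie close together.

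The named genes were also read in GCB. These were PE-binding B220+ Fas+ GL7+ lymph node cells of immunized mice of the same genotype, with 2 mice pooled per library. Jchain stood at 882, 609 and 687 FPKM in GCB, between nB and BMPC (log2 difference BMPC minus GCB 4.82 ± 0.21, adjusted p = 0.00046). Xbp1 stood at 27.4, 15.8 and 20.3 FPKM (BMPC minus GCB 4.95 ± 0.24, adjusted p = 0.00046), within the range of the nB libraries, and Irf4 at 5.47, 7.36 and 2.18 FPKM (BMPC minus GCB 3.05 ± 0.47, adjusted p = 0.00706), below every nB and BMPC library. Pax5 was still present at 12.6, 18.3 and 15.9 FPKM. In contrast, Ccr7 and S1pr1 were nearly as low in GCB as in BMPC, at 0, 1.88 and 2.52 FPKM and 6.51, 2.52 and 0.0432 FPKM, and did not pass between GCB and BMPC (adjusted p = 0.932 and 0.225). Cd38 was likewise low, at 5.09, 2.92 and 5.15 FPKM.

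By list, BMPC exceeded GCB in 16 of 24 translocation genes, 10 of 13 of antibody assembly and 14 of 45 of ER folding, beside 6.13% of all genes. BMPC lay below GCB in 19 of 28 B cell surface genes, 14 of 22 identity factors and 14 of 22 signaling genes, beside 15.7% of all genes. Proteasome subunits, which rose from nB in 16 of 37, did not exceed GCB in any, and the mitochondrial ribosomal proteins did so in 4 of 75. Their sums were 5138 to 5719 FPKM in nB, 9467 to 10519 FPKM in GCB and 10239 to 11607 FPKM in BMPC for the proteasome, and 3491 to 3776 FPKM, 6083 to 6715 FPKM and 8077 to 9465 FPKM for the mitochondrial ribosome. For translocation they were 1896 to 1963 FPKM, 2239 to 2461 FPKM and 8568 to 10865 FPKM. The proteasome sum of GCB was thus near that of BMPC, and the translocation sum of GCB near that of nB.

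The same step was measured in separate libraries from Dnmt3-deficient littermates (Dnmt3afl/fl Dnmt3bfl/fl with a Cre that is expressed in B cells and deletes both enzymes there), with 3 nB and 3 BMPC libraries, the latter of 1355231 to 2265945 reads. Of the 902 genes that rose, 841 (93.2%) were higher and 424 (47.0%) passed in Dnmt3-deficient mice, where 26.4% of all genes tested were higher and 5.69% rose. Of the 2157 genes that fell, 2099 (97.3%) were lower and 1180 (54.7%) passed, where 73.1% of all genes tested were lower and 23.4% fell. Conversely, 73.0% of the 581 rises and 49.5% of the 2385 falls of Dnmt3-deficient mice were called in Dnmt3-sufficient mice. The calls in the opposite direction were 6 genes that rose here and fell there (Bag1, Ckap2, Ddah2, Gorab, Prf1 and Tcn2) and 1 the other way (Mex3c), all named after their values were seen. With a library left out, the test was no longer passed by Ddah2 (without BMPC replicate 2 or 3 or nB replicate 1 or 2), Gorab (without any single BMPC library or nB replicate 1 or 2) and Tcn2 (without BMPC replicate 1 or 2 or any single nB library), at adjusted p = 0.0544 to 0.145. The call also did not hold for Bag1 (with voom on recovered reads), Ddah2 and Gorab (under at least 4 other ways of processing), Prf1 (with a pseudocount of 0.1 or voom on recovered reads) and Tcn2 (with thinned reads or voom on recovered reads). By limma's direct test of the difference between genotypes, Prf1 and Tcn2 passed (adjusted p = 0.0136 and 0.00621). Bag1, Ckap2, Ddah2, Gorab and Mex3c did not pass that test (adjusted p = 0.0527 to 0.108).

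Plasma cell genes were higher in BMPC of Dnmt3-deficient mice too. Xbp1 had a log2 change of 4.74 ± 0.22, adjusted p = 0.000363, Tnfrsf17 of 9.02 ± 0.30, adjusted p = 0.000127 and Jchain of 12.87 ± 1.82, adjusted p = 0.00438. Prdm1, which had not passed, rose there, from 0.184, 0.21 and 0 FPKM to 23.8, 45.2 and 7.15 FPKM (4.22 ± 0.73, adjusted p = 0.00826), and the difference of the 2 changes was 1.93 ± 1.15, adjusted p = 0.744. Irf4 differed in sign, with 17.2, 31.0 and 24.7 FPKM in nB and 14.5, 0.315 and 27.9 FPKM in BMPC (-1.55 ± 1.16, adjusted p = 0.341), and neither this change nor its difference from the Dnmt3-sufficient mice passed (-2.24 ± 1.24, adjusted p = 0.722). B cell surface genes fell in 20 of 28, translocation genes rose in 16 of 24 and genes of ER folding in 16 of 45. Ribosomal proteins rose in 11 of 83 (median log2 change 0.62) and the cell cycle list in 14 of 39 (median 1.28). The test of the difference between genotypes called 11 genes (0.108%, of which 0.0098% with a higher and 0.098% with a lower change in Dnmt3-deficient mice), with 762 at an unadjusted p under 0.05, and 2 of the 11, both globin genes, belonged to a list. The lower counts for ribosomal and cell cycle genes in Dnmt3-deficient mice therefore do not show that these lists differ between genotypes.

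**Figure D5:**
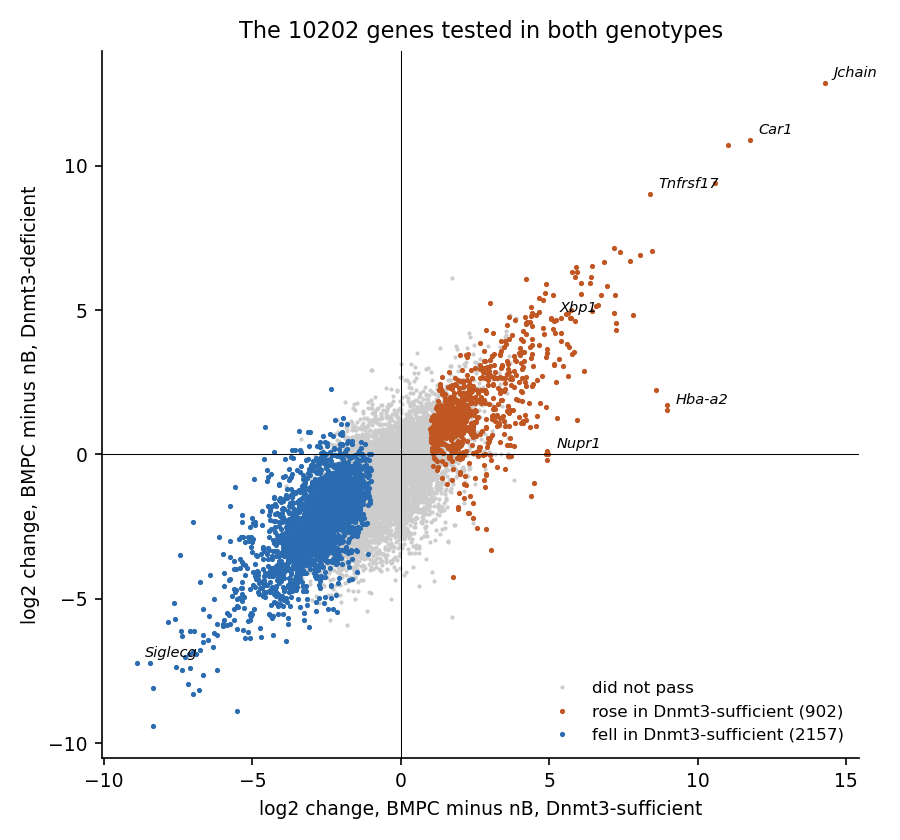
Log2 change from nB to BMPC of each of the 10202 genes tested, in Dnmt3-sufficient mice (horizontal axis) and Dnmt3-deficient mice (vertical axis), in orange for the 902 genes that rose and blue for the 2157 that fell in the former. Most coloured points lie in the quadrants of equal sign, 841 and 2099 of them, and Hba-a2 lies far below its value in Dnmt3-sufficient mice.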

How the data were processed

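RNA-seq was performed by the authors on 5000 sorted cells per library, with cDNA made and amplified by a SMART-type kit (13 cycles) and Nextera libraries (12 cycles). The authors mapped read pairs to mm9 with TopHat, kept single hits and counted reads on exons of UCSC KnownGenes. The sources do not say whether counting used strand, which leaves overlapping and antisense genes uncertain. Per the labels, R 3.2.2, edgeR 3.12.1 and Picard were used. The values analysed are FPKM as deposited by the authors, counts scaled by exon length and by the reads on listed genes. The deposited table also holds the log2 fold changes and FDR values of the authors' own comparisons, which were not used.

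FPKM times exon length gave whole reads for 100% of values (tolerance 0.01 reads), so depth and reads per gene were recovered. At 3 reads or fewer in every library a group was taken as at its floor, which covers counting error only, since amplified reads carry no molecular identifiers. The 6 libraries were compared with limma 3.58.1 in R 4.3.3 on log2(FPKM + 1) with an intensity trend, two-sided, with Benjamini-Hochberg adjustment over 10202 genes. Comparisons with GCB, in Dnmt3-deficient mice and of both genotypes (interaction term) used the same genes. Summed lists were compared by exact two-sided permutation. Python 3.11.15 was used for the rest. On simulated data drawn for BMPC against nB with 10202 genes, 85% of 100 genes changed 8-fold and 100% of 100 genes changed 32-fold were recovered, with 11 false calls. The simulated BMPC libraries varied less than the real ones (median SD 0.64 beside 0.87 on the log2 scale). The changed genes were drawn from the more abundant ones only. These rates therefore do not give the recovery or the false calls in the real data. Positions are those of mm9 (GENCODE), found for 9346 genes tested, and promoters those of RefSeq GRCm38.p6.

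The 92 table entries without a symbol, with at most 0.073% of reads, were kept under their Entrez numbers and held to the same filter as all genes. Genes were named by a rule: the 4 markers, preset members of each list, the 10 largest rises and falls with groups apart, up to 4 called members of each list by size, the 10 most abundant genes of each group and list members at 0 reads throughout a group. Further list members, and the genes of the closing section, were named after their values were seen. The members, lists and tests were chosen with earlier results of these data known. A list defined by the protein end KDEL was not run, and some genes that met the rule are not reported here. The alternatives tried were all 18 libraries in 1 fit, voom on the recovered reads, sex in the model, weights by library quality, thinning of all libraries to the smallest, scaling by the median of ratios or after removing Jchain, a pseudocount of 0.1, the filter left out or raised to an FPKM of 3 in 3 libraries, a threshold of 0.01, no required size of change, and each library omitted in turn.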

Additional observations from a re-analysis of the deposited data

Results flagged for a closer look

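The change from nB to BMPC differed between Dnmt3-deficient and Dnmt3-sufficient mice in 11 genes by limma's interaction test (0.108% of those tested). In 10 of the 11 the difference was negative, some of them with changes of opposite sign in the 2 genotypes. The 2 largest in level were globin genes. Hba-a2 rose by 8.97 in Dnmt3-sufficient mice and its change in Dnmt3-deficient mice was 1.54, a difference of -7.43 ± 1.21, adjusted p = 0.0406. Its levels were 0, 0.808 and 0 FPKM in Dnmt3-sufficient nB, 11.7, 59.6 and 117 FPKM in Dnmt3-deficient nB, and 424, 517 and 1047 and 413, 119 and 44.4 FPKM in the BMPC of both genotypes. For Hbb-bs the difference was -7.26 ± 1.06, adjusted p = 0.0188, with 10.8, 50.0 and 86.6 FPKM in Dnmt3-deficient nB and 0.468, 0.614 and 0.348 FPKM in Dnmt3-sufficient nB. The nB libraries of the 2 genotypes thus differed in globin level, and the part of blood cells in this was not tested.

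The gene of the small nucleolar RNA Snord49a, with 62 bases of exon, differed by -7.36. It had 4, 10 and 31 reads in Dnmt3-sufficient BMPC and 0, 0 and 0 FPKM in Dnmt3-deficient BMPC. Prf1, which encodes perforin, differed by -6.33, with 0, 0 and 0 FPKM in Dnmt3-deficient and 14.7, 25.8 and 20.8 FPKM in Dnmt3-sufficient BMPC. The cobalamin carrier gene Tcn2 differed by -6.00 and the stress-responsive factor gene Nupr1 by -4.98, at 24.7, 39.9 and 28.6 FPKM in Dnmt3-sufficient and 0, 0 and 0 FPKM in Dnmt3-deficient BMPC. Differences for Nudt9, Rab38, Haus7 and Enkur were -5.11, -4.89, -4.68 and -3.99. Snord49a, Prf1, Tcn2, Nupr1, Rab38, Haus7 and Enkur were at 0 FPKM in every Dnmt3-deficient BMPC library. Those libraries were shallow (1355231 to 2265945 reads), and values at 0 throughout a group show no spread. The part of depth in these differences was not tested. AB124611 was the single gene with a positive difference, at 4.65, and fell from 138, 133 and 112 FPKM to 0, 0 and 0 FPKM in Dnmt3-sufficient mice against 137, 144 and 127 FPKM to 26.3, 28.1 and 23.5 FPKM in Dnmt3-deficient mice.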

How the results depend on the processing

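Of 332 genes named here, 253 had passed, and of their 4544 values under the alternatives 4133 stayed past the threshold in the same direction, 411 lost the call and none changed sign. The genes that lost it numbered 69 at an adjusted p of 0.01, 2 with all 18 libraries, 27 at most under each of the other settings that kept all libraries, 19 to 22 without a BMPC library and 47 to 50 without an nB library. With voom on recovered reads Jchain did not pass (log2 change 18.80, adjusted p = 0.952), and with median of ratios scaling Cd74 fell short of the required size (-0.91). The cause was not tested. Of the 79 genes that had not passed, 104 of 1401 values passed and 24 changed sign, none of them past the threshold.

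Counts of genes moved more. At an adjusted p of 0.01, 1385 genes passed, 534 higher and 851 lower. With all 18 libraries 3259 genes were lower, and between genotypes 56 genes differed with all 18 libraries and 24 with a pseudocount of 0.1, in place of 11. On leaving out 1 library, the lower genes numbered 1426 (without nB replicate 2) to 2257, and the genes that differed from GCB 1319 to 2803, with 1319 to 1473 without a GCB library. In Dnmt3-deficient mice the range was 1809 to 3370, with 1842 and 1809 without nB replicate 1 or 3. Between genotypes it was 5 to 83, with 5 to 9 without an nB library and 16 to 83 (Dnmt3-deficient BMPC replicate 1) without a BMPC library. Under the remaining settings genes higher in BMPC numbered 822 to 1074 and genes lower 1714 to 2182. Median of ratios scaling moved the median of all genes from -0.89 to -0.68.

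The changes of sign in genes that had not passed were, with median of ratios scaling, Cd52 (0.038), Dnmt1 (0.0026) and Rpn1 (0.23), with sex as a covariate Rpn1 (0.077), Ddit3 (-0.16), Pdia6 (-0.092) and Stt3a (-0.16), and with voom Rpn1 (0.11), Ddit3 (-0.15) and Stt3a (-0.078). Rescaled without Jchain, Rpn1 was at 0.049, and thinned, Ddit3 was at -0.053. Over the fits that omitted 1 library the ranges were -2.37 to 0.42 for Atg5, -0.56 to 0.21 for Dnmt1, -0.23 to 0.39 for Rpn1, -0.16 to 0.22 for Stt3a, -0.44 to 0.50 for Ddit3 and -0.12 to 0.54 for Pdia6.

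Limits of these data are the depth of BMPC, which leaves genes of a few reads undetected, 3 libraries a group, and a sort that differed between groups in tissue, immunization and markers. No paired analysis was possible because the nB came from unimmunized mice and the BMPC from other, immunized mice. Equal replicate numbers do not link an nB library to a BMPC library.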

Other observations

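Several genes with large rises belong to none of the lists and were picked after their values were seen. Slpi, a secreted inhibitor of leukocyte proteases, stood at 0, 0 and 14.3 FPKM in nB and 5583, 3405 and 2824 FPKM in BMPC (log2 change 10.57 ± 1.02, adjusted p = 0.000688), which placed it among the 10 most abundant BMPC genes. The metallothionein genes Mt1 and Mt2, which bind zinc and copper, both had 0 reads in nB and were uniform in BMPC, at 375, 328 and 346 FPKM and 126, 122 and 121 FPKM (at least 675-fold and at least 175-fold higher with each nB library set at 3 reads). Fam46c, a poly(A) polymerase gene of plasma cells, stood at 0.957, 0 and 0 FPKM in nB and 88.2, 243 and 132 FPKM in BMPC, and Eaf2, a partner of Ell2, at 0.46, 0.69 and 0.832 FPKM in nB and 134, 77.2 and 87.0 FPKM in BMPC. Eaf2 was as high in GCB, at 139, 124 and 109 FPKM. Tmem176a and Tmem176b, neighboring membrane protein genes, rose with log2 changes of 7.39 ± 0.81 and 5.91 ± 0.54. The glutamine transporter gene Slc38a5 and the transferrin gene Trf had 0 reads in nB and 68.3, 95.3 and 87.4 FPKM and 84.9, 93.0 and 36.3 FPKM in BMPC. All of these rose in Dnmt3-deficient mice as well, by 5.55 to 9.41 on the log2 scale.

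A second group among the largest rises holds genes of erythroid precursors. The Rh blood group gene Rhd stood at 1.12, 0.574 and 0 FPKM in nB and 334, 182 and 184 FPKM in BMPC (log2 change 7.23 ± 0.51, adjusted p = 0.000234) and Rhag at 0.0645, 0 and 0 FPKM in nB and 37.2, 34.4 and 104 FPKM in BMPC. Cldn13, Tspo2 and the factor gene Gfi1b had 0 reads in nB and 148, 140.3 and 165 FPKM, 97.4, 189 and 166 FPKM and 72.7, 78.9 and 148 FPKM in BMPC. These moved with the erythroid marker list, which was not tested for its part in other results. Among the falls outside the lists, the elongation factor gene Ell3, a relative of Ell2, went from 109.6, 145 and 127 FPKM to 0 reads in each BMPC library (at least 248-fold lower), and the lymphotoxin gene Lta from 80.6, 107 and 116 FPKM to 0 reads (at least 141-fold lower). March1, the ubiquitin ligase that removes MHC class II from the surface, went from 60.5, 56.7 and 67.7 FPKM to 0 reads (at least 299-fold lower).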
